A study of Mus musculus with 8 samples.

Results

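The serum amyloid A genes Saa1, Saa2, Saa3 and Saa4 and 6 further genes of secreted acute phase or haem- and iron-binding proteins, Orm1, Orm2, Hp, Hpx, Lcn2 and Apcs, were followed in mouse liver after delivery of the vector AdLeXis or AdGFP. The members were the non-control probes whose gene name in the scanner files was one of these 10 symbols. Each gene had 1 probe, printed as 1 spot, so that there were 10 probes of the 55681 on the array and 10 of its 34836 gene names. All 10 were well above background on all 8 arrays.

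RNA came from the livers of bl6 mice aged 12 weeks and fed chow, and it was isolated on day 6. There were 4 samples of the AdGFP group and 4 of the AdLeXis group, each hybridised to a 1-colour Agilent array. LeXis is a long noncoding RNA of liver, known as a target of the liver X receptors and for its effect on cholesterol synthesis genes, and GFP is a green fluorescent protein of no known role in liver. By the prefix of their names both groups received an adenovirus. Whether an effect of the virus itself was equal in both groups was not tested. The labels' treatment text names pblockITcontrol and pblockITshRaly instead, and the groups here follow the treatment tag, the titles and the series' design. Whether the samples were separate animals is not given in the labels; the p-values then refer only to the spread among these samples, part of which may be technical. In bulk tissue, fewer cells of a type and less RNA per cell cannot be told apart.

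The acute phase response is the change in the liver's secreted proteins that follows infection or injury. Cytokines of the interleukin 6 and interleukin 1 families act on hepatocytes through STAT3, NF-kB and C/EBP factors and raise positive acute phase proteins, while negative ones such as albumin fall. Saa1 and Saa2 are the main inducible serum amyloids of hepatocytes and travel on high density lipoprotein. Saa3 is made by macrophages and adipocytes as well as liver, and Saa4 is known as the constitutive family member. Orosomucoids (Orm1, Orm2) are plasma carriers of small molecules, Hp (haptoglobin) binds free haemoglobin, Hpx (hemopexin) binds haem, Lcn2 (lipocalin 2) binds bacterial siderophores, and Apcs is serum amyloid P, the pentraxin that is the main acute phase reactant of its kind in mice.

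The promoters of the neighbouring genes that moved differently are shown first, because the results turn on these pairs. Each is the stretch of 200 bases before the start site, from RefSeq on assembly GRCm38.p6, written in the direction of transcription. The positions are chr7:46742981-46743180 on the minus strand for Saa1, chr7:46751633-46751832 on the plus strand for Saa2, chr7:46715677-46715876 on the minus strand for Saa3 and chr7:46732604-46732803 on the minus strand for Saa4. Orm2 is at chr4:63362249-63362448 and Orm3, an orosomucoid gene between Orm1 and Orm2, is at chr4:63355958-63356157, both on the plus strand. Capitals mark matches to TTGCNNAA, a C/EBP-type motif, on either strand.
Saa1: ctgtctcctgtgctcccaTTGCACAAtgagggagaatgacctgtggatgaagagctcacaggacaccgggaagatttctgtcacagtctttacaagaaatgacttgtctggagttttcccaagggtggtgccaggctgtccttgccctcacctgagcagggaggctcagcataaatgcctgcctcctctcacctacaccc
Saa2: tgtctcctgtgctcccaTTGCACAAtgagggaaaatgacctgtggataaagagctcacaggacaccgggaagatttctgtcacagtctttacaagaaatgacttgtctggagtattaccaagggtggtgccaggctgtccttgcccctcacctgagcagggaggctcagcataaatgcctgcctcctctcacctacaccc
Saa3: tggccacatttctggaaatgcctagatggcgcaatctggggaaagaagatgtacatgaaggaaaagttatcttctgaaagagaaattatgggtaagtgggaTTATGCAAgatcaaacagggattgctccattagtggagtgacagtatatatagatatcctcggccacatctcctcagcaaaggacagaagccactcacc
Saa4: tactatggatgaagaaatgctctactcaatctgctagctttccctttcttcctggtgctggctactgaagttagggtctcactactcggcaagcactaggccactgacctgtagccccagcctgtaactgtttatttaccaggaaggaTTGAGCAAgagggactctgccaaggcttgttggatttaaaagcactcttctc
Orm2: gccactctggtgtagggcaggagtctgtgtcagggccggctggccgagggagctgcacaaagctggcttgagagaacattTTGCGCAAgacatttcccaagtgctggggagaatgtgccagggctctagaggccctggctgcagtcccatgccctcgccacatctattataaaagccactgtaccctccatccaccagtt
Orm3: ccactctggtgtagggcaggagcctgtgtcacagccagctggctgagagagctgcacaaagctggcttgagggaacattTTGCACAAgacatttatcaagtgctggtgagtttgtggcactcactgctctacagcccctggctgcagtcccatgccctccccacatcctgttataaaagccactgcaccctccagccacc

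Over the 250 bases before the start site, the Saa1 and Saa2 promoters were identical at 94.8% of aligned positions and those of Orm2 and Orm3 at 85.9%. The Saa3 promoter matched that of Saa1 at 52.5% and that of Saa4 at 48.9% of aligned positions. The promoter table held 8 of the 10 members. Of these, 7 had a match to TTGCNNAA within 250 bases, as did 9.56% of the 32851 promoters in the table. The first base of the match lay at -182 in Saa1, -183 in Saa2, -99 in Saa3, -120 in Orm2, -200 in Hpx and -216 in Lcn2, and Saa4 had matches at -245 and -52. Apcs had no TTGCNNAA match. It had CTGGGAA, an interleukin 6 response element found in 9.10% of promoters, at -129 and -52, and TTCNNNGAA, a STAT-type motif found in 7.02%, at -244. An NF-kB-type motif of 10 letters, found in 4.11% of promoters, was in none of these 8 windows. For NF-kB only that pattern was searched, and sites that differ from it by a single letter were not. Its absence therefore does not show that these promoters lack NF-kB sites. Both strands were searched, and no 2 of the marked matches overlap. The motifs were chosen after the promoters had been read, and a match describes letters only.

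The probes that measured the genes whose results are set against each other are printed below, each as its 60 bases. They lie at chr7:53970389-53970448 (Saa3), chr7:53996070-53996129 (Saa1), chr4:63006483-63007090 (Orm1), chr4:63024979-63025038 (Orm2) and chr1:174824959-174825018 (Apcs) in build mm9. The Orm1 probe spans 608 bases of genome, so it crosses an intron.
Saa3: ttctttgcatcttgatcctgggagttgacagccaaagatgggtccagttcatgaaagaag
Saa1: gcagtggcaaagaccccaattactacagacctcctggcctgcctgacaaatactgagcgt
Orm1: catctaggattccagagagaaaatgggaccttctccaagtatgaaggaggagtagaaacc
Orm2: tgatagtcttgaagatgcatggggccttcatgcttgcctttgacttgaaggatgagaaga
Apcs: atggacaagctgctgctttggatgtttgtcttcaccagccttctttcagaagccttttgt

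The longest run of bases that any 2 of the 10 member probes shared was 8. Whether a probe also binds the transcript of a related gene was not tested, and Saa1 against Saa2 and Orm1 against Orm2 are uncertain for that reason. The Saa4 probe lies at chr7:53983662-53983721 and the Saa2 probe at chr7:54009622-54009681. The remaining probes lie at chr8:112099045-112099104 (Hp), chr7:112740304-112740363 (Hpx), chr2:32240199-32240258 (Lcn2), also in mm9.

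Across the members, Saa3 and Saa4 rose in the AdLeXis group, Orm1, Orm2, Hp and Apcs fell, and Saa1, Saa2, Hpx and Lcn2 did not pass the test. Levels are log2 of the processed intensity after each array was scaled to its 75th percentile, differences are AdLeXis minus AdGFP on that log2 scale, and a gene was called when limma's adjusted p over 23997 genes was under 0.05. Of all genes tested 17.5% were called, 8.72% higher and 8.76% lower. That split was 2093 higher and 2101 lower, against 1156 and 2679 with scaling to the median and 2981 and 9694 with normexp background correction. The members' counts were 2 of 10 higher and 4 of 10 lower, and their median difference was -0.19, against -0.0021 over all genes. For the 2 members that rose the AdLeXis range lay wholly above the AdGFP range, as it did for 12.4% of all genes, and for the 4 that fell it lay wholly below, as it did for 12.3% of all genes.

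**Figure D1:**
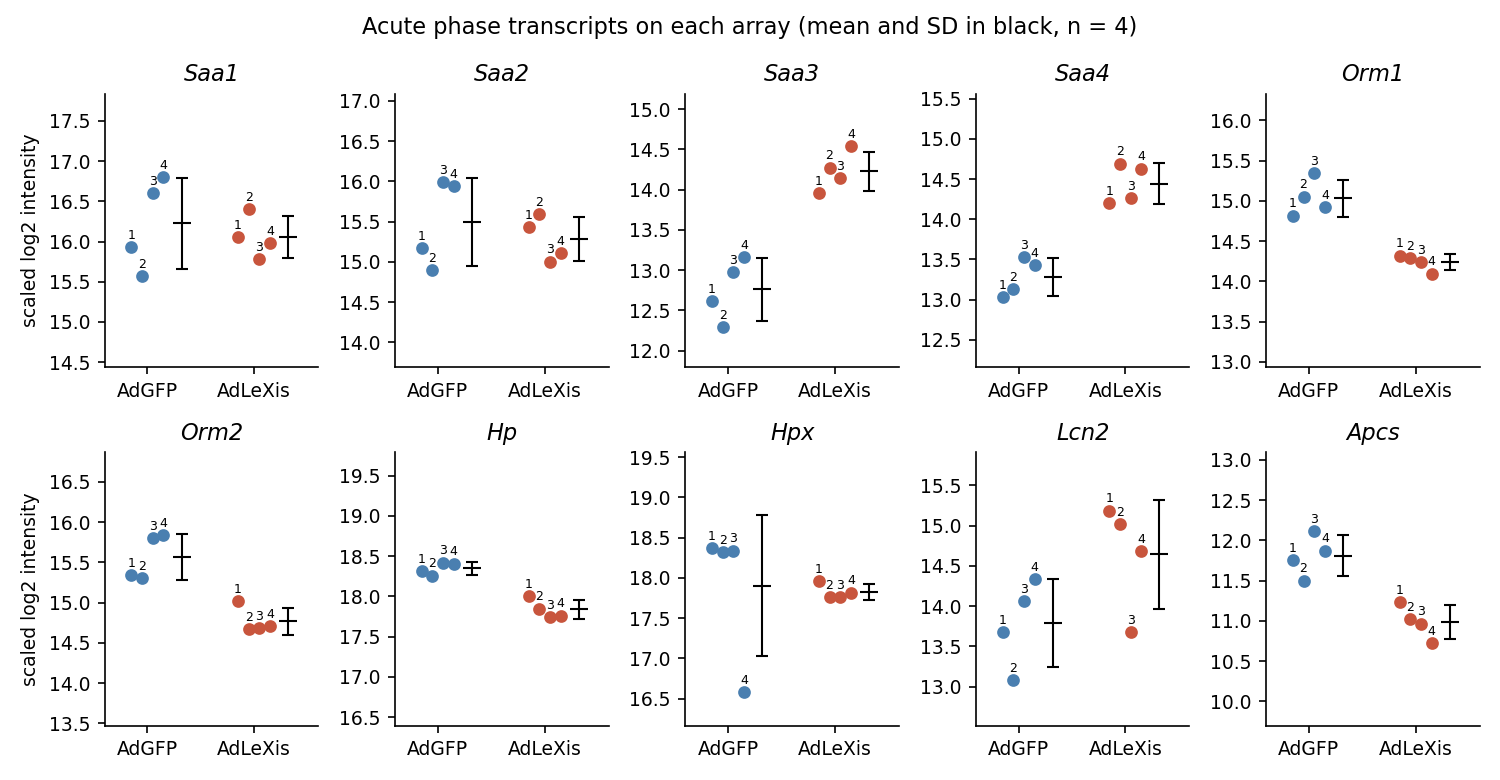
Scaled log2 intensity of the 10 members on each of the 8 arrays, with 1 point for each array and the group mean with its SD. Saa3 and Saa4 were above the AdGFP range on all 4 AdLeXis arrays, Orm1, Orm2, Hp and Apcs were below it on all 4, and 1 AdGFP array (replicate 4) lay far below the others for Hpx.

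The arrays themselves differed between the groups. Before scaling, the 75th percentile of intensity was 220 to 297 on the AdGFP arrays and 381 to 448 on the AdLeXis arrays, and the share of spots well above background was 58.9% to 62.5% on the former and 62.6% to 67.7% on the latter. Pairs of arrays correlated at 0.991 to 0.994 within a group and at 0.982 to 0.989 between groups. All 8 arrays were on 1 slide and scanned at 1 time, the AdGFP arrays in slide row 1 and the AdLeXis arrays in slide row 2, so slide row and group cannot be told apart. As a check of the labels, the lincRNA that the array names by its region, chr4:53217935-53230433 on the reverse strand (mm9), was at 1.46 to 3.97 in AdGFP samples, well above background on 1 of the 4 arrays, and at 9.42 to 10.21 in AdLeXis samples. Whether it is LeXis was not tested. Raly, which the treatment text names, differed by 0.17 (limma adjusted p = 0.358). The liver label matched hepatocyte markers, whose mean level ran from 16.84 to 17.01 in AdGFP and from 16.34 to 16.65 in AdLeXis samples.

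Saa3 rose 2.77-fold. Its level was 12.62, 12.29, 12.97 and 13.16 in AdGFP replicates 1 to 4 and 13.96, 14.27, 14.15 and 14.54 in AdLeXis replicates 1 to 4. Every AdLeXis sample was above every AdGFP sample. The difference was 1.47 ± 0.20 (SE; n = 4 and 4; 95% interval 1.0 to 1.93; limma adjusted p = 0.00315), between means of 12.76 ± 0.39 and 14.23 ± 0.24 (SD).

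Saa4, the constitutive serum amyloid, rose 2.24-fold. Its level was 13.04, 13.13, 13.53 and 13.43 in AdGFP samples and 14.20, 14.69, 14.26 and 14.63 in AdLeXis samples, again with no overlap. The difference was 1.16 ± 0.16 (SE; 95% interval 0.80 to 1.53; limma adjusted p = 0.00304), between means of 13.28 ± 0.24 and 14.44 ± 0.25 (SD).

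Saa1 and Saa2, the inducible hepatocyte forms, overlapped between the groups. Saa1 was at 15.93, 15.57, 16.60 and 16.80 in AdGFP samples and at 16.05, 16.40, 15.78 and 15.98 in AdLeXis samples. The AdGFP samples spanned the whole AdLeXis range. The difference of Saa1 was -0.17 ± 0.27 (SE; 95% interval -0.80 to 0.45; limma adjusted p = 0.718), and without AdGFP replicate 4 it was 0.019.

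Saa2 was at 15.17, 14.90, 15.99 and 15.94 in AdGFP samples and at 15.43, 15.59, 15.004 and 15.11 in AdLeXis samples. Replicates 3 and 4 of AdGFP were the high samples for both genes and replicate 2 the low one. The difference of Saa2 was -0.22 ± 0.27 (SE; 95% interval -0.83 to 0.40; limma adjusted p = 0.631).

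Set against each other within the same arrays, Saa3 differed from Saa1 in its response by 1.64 and Saa4 from Saa2 by 1.38 on the log2 scale, and in both pairs all 4 AdLeXis arrays lay beyond all 4 AdGFP arrays. The 2-sided exact permutation test over samples gave p = 0.0286 for each, the smallest that 70 relabellings of 4 against 4 allow, and 0.0571 after Benjamini-Hochberg adjustment over the 8 such pairs, which were chosen after the values had been seen.

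The 4 Saa probes lie within 39233 bases of chromosome 7 in mm9, in the order Saa3, Saa4, Saa1, Saa2, so the genes that rose are next to each other. The starts of neighbouring probes are 13273, 12408 and 13552 bases apart. On the Saa3 side, Saal1 rose by 0.47 ± 0.10 (SE; limma adjusted p = 0.0137; range over alternatives 0.00709 to 0.064, the highest under median scaling), and Sergef differed by -0.06. On the Saa2 side, Hps5, a subunit of a complex in lysosome-related organelle biogenesis, rose by 0.56 ± 0.09 (SE; limma adjusted p = 0.00588). With the mean of its probes in place of the brightest one, Hps5 differed by 0.32 (limma adjusted p = 0.326, within a range over alternatives of 0.00141 to 0.326). Next to it Gtf2h1 differed by 0.077, and Ldha, lactate dehydrogenase A, fell by 0.53 (limma adjusted p = 0.0167, within 0.00305 to 0.411 over alternatives). Ldha lost its call with normexp background correction (-0.20), with quantile normalization (-0.16) and with the mean of its probes (-0.86). With normexp background correction Saal1 differed by 0.29.

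Orm1 fell to 0.575 of its AdGFP level. It was at 14.82, 15.05, 15.34 and 14.92 in AdGFP samples and at 14.32, 14.29, 14.24 and 14.09 in AdLeXis samples. The groups did not overlap, and the AdLeXis samples were the closer together, with an SD of 0.10 against 0.23. The difference was -0.80 ± 0.12 (SE; 95% interval -1.08 to -0.51; limma adjusted p = 0.00478). With normexp background correction, under which the median over all genes was -0.19, it was -0.43 (limma adjusted p = 0.0185; range over alternatives 0.000466 to 0.0213).

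Orm2 fell to 0.573 of its AdGFP level. Its AdGFP samples were at 15.35, 15.31, 15.80 and 15.84 and its AdLeXis samples at 15.02, 14.67, 14.68 and 14.71. AdLeXis replicate 1 stood above the other 3 but still below every AdGFP sample. The difference was -0.80 ± 0.15 (SE; 95% interval -1.15 to -0.45; limma adjusted p = 0.0109).

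Orm3, which lies between them on chromosome 4 and is no member of the 10, went the other way. It was at 8.11, 7.42, 8.34 and 7.55 in AdGFP samples and at 9.89, 9.58, 8.41 and 9.21 in AdLeXis samples, where replicate 3 was barely above the highest AdGFP sample. Its difference was 1.42 ± 0.34 (SE; limma adjusted p = 0.0234). Leaving out AdGFP replicate 2 or 4 or AdLeXis replicate 2 or 4 gave 1.27, 1.32, 1.32 and 1.44 with limma adjusted p = 0.0605, 0.0589, 0.0615 and 0.056, and with the replicate number as a block the adjusted p was 0.0604, within a range over alternatives of 0.000179 to 0.0615. The responses of Orm3 and Orm1 differed by 2.22 (2-sided exact permutation p = 0.0286, 0.0571 after adjustment over 8 pairs), a pair chosen after the values had been seen. Beyond Orm2, Akna, a transcription factor gene, fell by 0.75 (limma adjusted p = 0.0019). Past Akna, Whrn differed by -0.97 (limma adjusted p = 0.0238, within 0.000267 to 0.139 over alternatives) and Atp6v1g1 by -0.42 (limma adjusted p = 0.0128), both called lower. Before Orm1, Col27a1, a fibrillar collagen gene, differed by 0.13, and next to it Kif12 differed by -0.41 (limma adjusted p = 0.183). Further out, Ambp, the precursor of alpha-1-microglobulin and bikunin, fell by 0.47 (limma adjusted p = 0.00725), but under quantile normalization its difference was 0.0059.

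Apcs fell to 0.566 of its AdGFP level. The differences of Orm1, Orm2 and Apcs were -0.80, -0.80 and -0.82, and which of the 3 was lowest changed with the processing. It was at 11.75, 11.499, 12.11 and 11.87 in AdGFP samples and at 11.23, 11.03, 10.97 and 10.73 in AdLeXis samples. No AdLeXis sample reached the AdGFP range. The difference was -0.82 ± 0.15 (SE; 95% interval -1.17 to -0.47; limma adjusted p = 0.00997).

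Hp, haptoglobin, fell to 0.703 of its AdGFP level after scaling. It was at 18.31, 18.26, 18.42 and 18.41 in AdGFP samples and at 18.001, 17.85, 17.74 and 17.76 in AdLeXis samples, with no overlap. The difference was -0.51 ± 0.09 (SE; 95% interval -0.71 to -0.31; limma adjusted p = 0.0072). It rests on the scaling between arrays. Before scaling, the intensities of Orm1 (19908 to 35839 on the AdGFP and 23167 to 27007 on the AdLeXis arrays), Orm2 (28742 to 49164 and 35213 to 38378) and Apcs (2381 to 3820 and 2244 to 2817) overlapped between groups too. The falls of Orm1, Orm2 and Apcs therefore rest on scaling as well. Their calls held under each alternative run, but every run scaled the arrays to one another, so none shows these falls without scaling. The unscaled ranges of Saa3 (4338 to 6933 and 18398 to 31494) and Saa4 (5800 to 10215 and 21701 to 35696) did not overlap. Those of Lcn2 and Hpx, given below, did not overlap either, with the AdLeXis arrays higher. Every AdLeXis array was brighter as a whole before scaling (75th percentile 381 to 448 against 220 to 297). Unscaled values thus favour rises and hide falls, so these ranges cannot set the rises apart from the falls. The Hp intensity was 224957, 281211, 301577 and 231008 on the AdGFP arrays and 303092, 318759, 298262 and 294022 on the AdLeXis arrays, so that the unscaled ranges overlapped and 3 of the 4 AdGFP arrays lay below every AdLeXis array. Under quantile normalization the difference was -0.0031 (limma adjusted p = 0.982) and under cyclic loess -0.36 (limma adjusted p = 0.0369), within a range over alternatives of 0.000699 to 0.982.

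The brightest genes as a class behaved in this way. Of the 26 genes with a mean level of 18 to 20, 100% were called lower, with a median difference of -0.55, and Hp is one of them. Of the 374 genes between 16 and 18, 35% were called lower and 0.802% higher, with a median of -0.20, and of the 1115 between 14 and 16, 9.87% were called lower and 3.86% higher, with a median of -0.06. Orm1 and Orm2 lie in the band from 14 to 16 and Apcs in the band from 10 to 12, where 9.27% were called lower and 12% higher and the median was 0.036. Saa3 and Saa4 lie in the band from 12 to 14, where 9.28% were called higher and 10.4% lower and the median was 0.0018. No spot was marked saturated on any array, and the part of signal level in the difference of Hp was not tested.

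**Figure D2:**
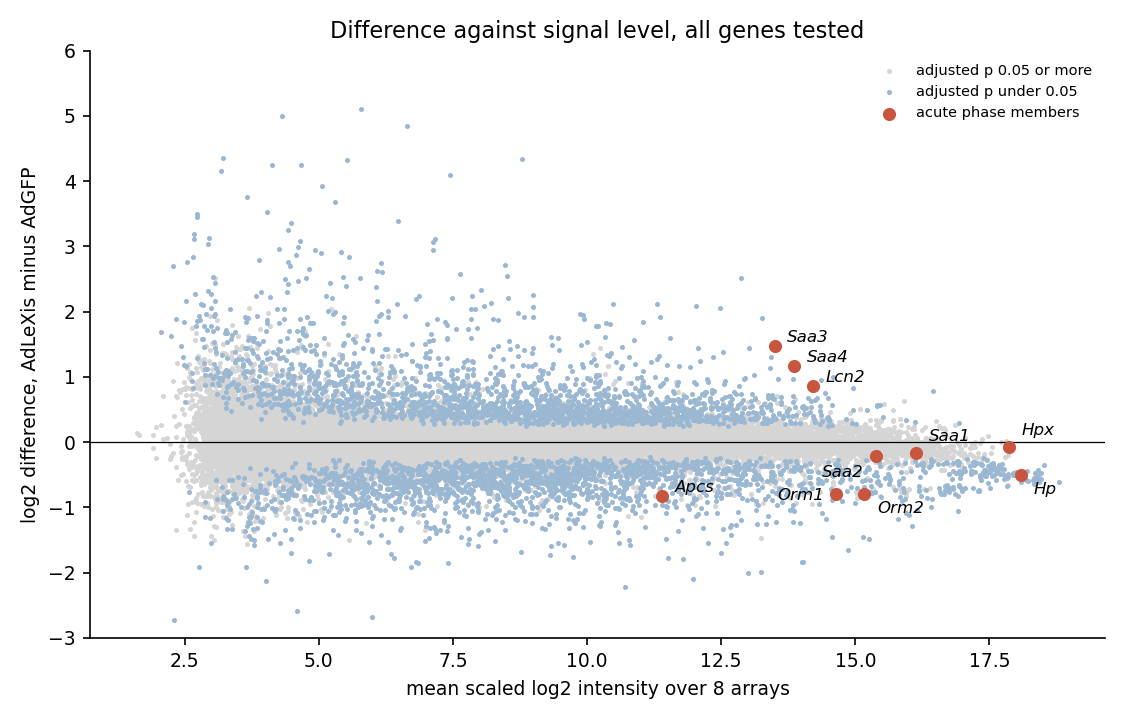
Log2 difference between AdLeXis and AdGFP against mean scaled log2 intensity over the 8 arrays, with 1 point for each of the 23997 genes and the 10 members in red. The brightest genes, Hp among them, lie below 0 as a band, while Orm1, Orm2 and Apcs lie below and Saa3 and Saa4 above the bulk of genes at their own signal level.

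Set against Alb, albumin, which fell by 0.61 ± 0.09 (SE; limma adjusted p = 0.00435) but lost its call with normexp background correction (-0.22, limma adjusted p = 0.135, within 0.000326 to 1 over alternatives), Hp differed in its response by 0.10 (2-sided exact permutation p = 0.257), Orm1 by -0.19 (p = 0.257, exact), Orm2 by -0.19 (p = 0.371, exact) and Apcs by -0.21 (p = 0.286, exact). After adjustment over the 8 pairs these were 0.327 to 0.371. With normexp background correction the same differences were -0.36 for Hp, in the other direction, -0.21 for Orm1, -0.64 for Orm2 and -0.60 for Apcs. Quantile normalization set Alb to a difference of 0, so no ratio to albumin is read from it. The fall of Orm1, Orm2 and Apcs on its own was called under each alternative tried, all of which scaled the arrays to one another.

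Hpx, hemopexin, was at 18.37, 18.32, 18.34 and 16.58 in AdGFP samples and at 17.96, 17.76, 17.76 and 17.82 in AdLeXis samples. After scaling, AdGFP replicate 4 was below every other sample, and the other 3 AdGFP samples were above every AdLeXis sample. Before scaling those 3 were at 234136, 294706 and 285504, below every AdLeXis sample (295187 to 305713). Their place above the AdLeXis samples therefore rests on scaling, and so does the fall without AdGFP replicate 4. Hpx, at a mean level of 17.86, lies in the band from 16 to 18, where 35% of genes were called lower. The difference over all 8 arrays was -0.08 ± 0.38 (SE; 95% interval -0.95 to 0.79; limma adjusted p = 0.915). Without AdGFP replicate 4 it was -0.52 (limma adjusted p = 0.0124), within a range over alternatives of 0.0124 to 0.948, and leaving out AdGFP replicate 1, 2 or 3 instead gave 0.076, 0.060 and 0.064.

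The spot behind that low value differed from the same spot on the other arrays. The SD over its pixels was 17.6% of its mean, against 2.01% to 4.31% on the other 7 arrays, and its local background was 49.9, against 15.2 to 18.2. Of the 315 other spots on that array with an unscaled log2 intensity of at least 16, 3 (0.952%) had a relative pixel SD as high. The scanner software had not marked the spot as an outlier, and it was kept in the fit.

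Lcn2, lipocalin 2, was at 13.68, 13.08, 14.06 and 14.33 in AdGFP samples and at 15.18, 15.02, 13.68 and 14.68 in AdLeXis samples. After scaling, AdLeXis replicate 3 lay among the AdGFP samples, and the other 3 AdLeXis samples lay above them. Before scaling the ranges did not overlap (7777 to 14749 on the AdGFP and 17805 to 44839 on the AdLeXis arrays), but the AdLeXis arrays were all brighter as a whole. The difference was 0.85 ± 0.37 (SE; 95% interval 0.0027 to 1.7), 1.81-fold, with a limma adjusted p of 0.155. Without AdLeXis replicate 3 it was 1.17 (limma adjusted p = 0.0399), and with normexp background correction 0.95 (limma adjusted p = 0.00498), within a range over alternatives of 0.00498 to 0.307. The responses of Lcn2 and Saa1 differed by 1.02 (2-sided exact permutation p = 0.0286, 0.0571 after adjustment over 8 pairs). This pair too was chosen after the values had been seen, so its p adds no support to the uncalled rise of Lcn2.

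**Figure D3:**
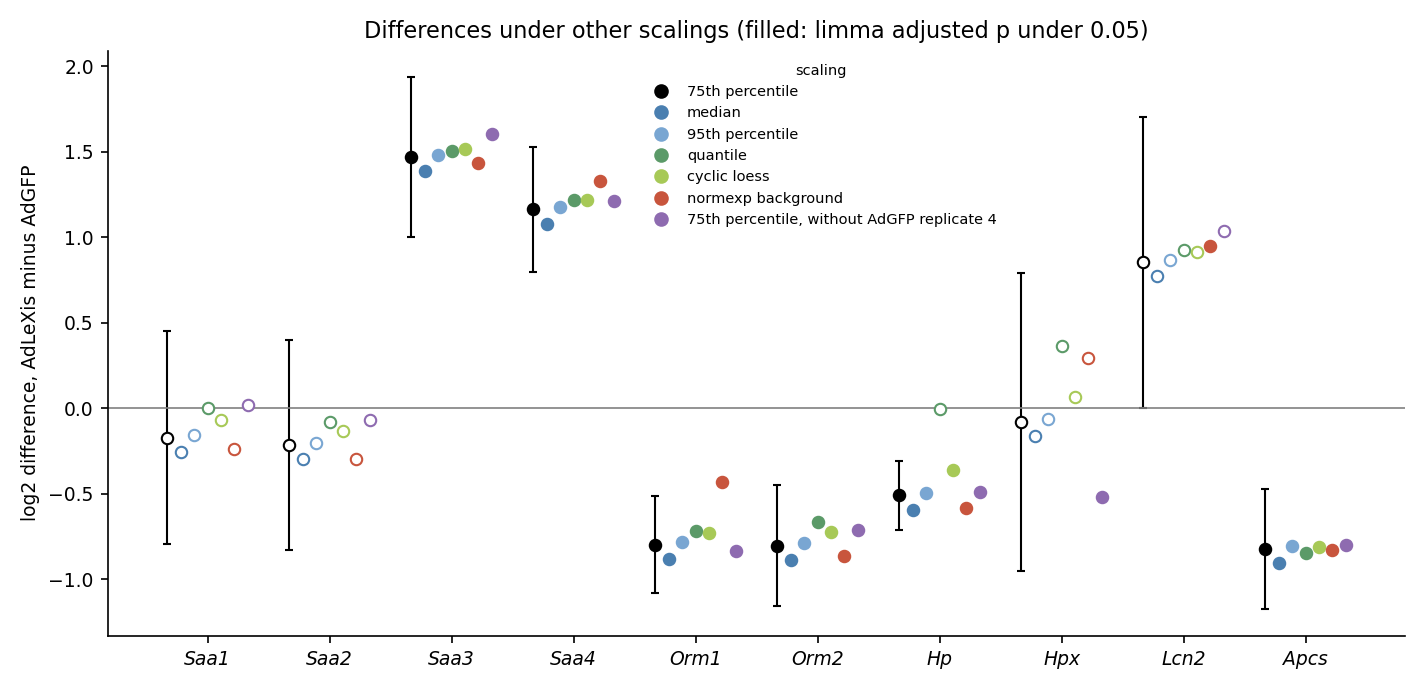
Log2 difference between AdLeXis and AdGFP for each member under 6 ways of correcting or scaling the arrays and without 1 array (AdGFP replicate 4), with the 95% interval for the 75th percentile scaling; filled points have a limma adjusted p under 0.05. Saa3, Saa4, Orm1, Orm2 and Apcs are filled throughout, Hp is open under quantile normalization, Lcn2 is filled under normexp background correction, and Hpx is filled without AdGFP replicate 4.

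Within the AdGFP group, replicate 2 had the lowest value for 7 of the 10 members, and within the AdLeXis group replicate 1 had the highest for 6. The genes whose values over the 8 arrays were most like those of a called member were listed by Pearson's r, which the group difference raises, so r after removal of the group means is given as well. For Saa3 they were Zfp446 (r = 0.985 over 8 arrays, 0.873 after removal), Sdsl (0.983 and 0.857) and Ppp4r4 (0.983 and 0.859). For Saa4 they were Cela3b (0.990 and 0.912), Trhde (0.989 and 0.925) and Skiv2l (0.984 and 0.889). For Orm1 they were Zkscan6 (0.989 and 0.915), Dbi (0.988 and 0.906) and Qsox1 (0.984 and 0.885). For Orm2 they were Slc2a3 (0.989 and 0.95), Lef1 (0.987 and 0.969) and Slc10a1, the bile acid uptake transporter (0.985 and 0.926). For Hp they were the bright hepatocyte products Trf, transferrin (0.990 and 0.914), and C3, complement component 3 (0.988 and 0.887), with Kctd14 (0.989 and 0.888). For Apcs, Ang4 (0.985 and 0.933) and Ang2 (0.981 and 0.905) were among them. All points share the same 8 arrays, and the genes were picked for the likeness.

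Among the cytokines that drive the acute phase response, 2 of the 9 measured fell and 7 did not pass the test, with a median difference of -0.079. For this list and those that follow, the share over all genes tested was 8.76% called lower and 8.72% called higher. With normexp background correction 7 of the 9 were called lower, but so were 9694 genes over the whole array. Il1b, interleukin 1 beta, fell by 0.89 ± 0.13 (SE; limma adjusted p = 0.00352) and Tnf by 0.98 ± 0.19 (SE; limma adjusted p = 0.0111), each with no overlap between groups. Il6 differed by -0.08 (limma adjusted p = 0.803; with normexp background correction it was called lower at limma adjusted p = 0.0017, within 0.0017 to 0.946 over alternatives), and Ctf1, the brightest not called, by -0.08. Il6, Osm, Il22 and Il11 were dim, at mean levels of 3.15 to 3.97 over the 8 arrays. On these arrays the lowest unscaled log2 intensity well above background was 2.40 to 3.28. The differences of these dim genes are therefore weakly measured.

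Of 11 cytokine receptors 1 fell, Il6st, the signal-transducing chain gp130, by 0.37 ± 0.08 (SE; limma adjusted p = 0.0185). Without AdGFP replicate 2 or AdLeXis replicate 4 its difference was -0.34 and -0.33, with limma adjusted p = 0.0536 and 0.0544, the upper end of a range over alternatives that began at 0.00258. Il6ra, the interleukin 6 receptor alpha chain, differed by 0.093 (0.45 and called with normexp background correction). With that correction 2 receptors were called higher and 2 lower, and 1 was called higher with the replicate number as a block, with a trend in the moderation or without AdLeXis replicate 1. The list's median difference was -0.19. Over all genes tested 8.76% were called lower, so 1 of 11 receptors is near that share.

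Of 22 signalling and transcription factor genes 5 fell and 17 did not pass, with a median of -0.062, beside 8.76% of all genes called lower. The feedback inhibitors of cytokine signalling fell, Socs1 by 1.24 ± 0.21 and Socs3 by 0.97 ± 0.18 (SE; limma adjusted p = 0.00635 and 0.0091). Myd88, the adaptor of interleukin 1 and Toll-like receptors, fell by 0.47 ± 0.08 (SE; limma adjusted p = 0.00702). With normexp background correction Socs3 differed by -0.44 and Myd88 by -0.30, and 3 genes of the list were called higher. Nfkb1 fell by 0.34 ± 0.09 (SE; limma adjusted p = 0.0343), but leaving out any 1 sample except AdGFP replicate 4 took it past the threshold. Its differences in those runs were -0.36 to -0.28, and its limma adjusted p ranged from 0.00261 to 0.0927 over alternatives. The count of the list that fell was 3 without any 1 sample except AdGFP replicate 4 and 3 with the replicate number as a block or with no filter on dim probes. Stat3 differed by -0.10, Cebpd by -0.07, Cebpb by 0.25 and Hnf4a by 0.03, none of them called, and Cebpb was called higher under normexp background correction (0.67).

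Of 30 other positive acute phase proteins measured, 9 fell, 3 rose and 18 did not pass, with a median of -0.18. C3 fell by 0.51 ± 0.08, Serpina3k by 0.67 ± 0.11, Serpina1a, an alpha-1-antitrypsin, by 0.47 ± 0.08 and Ifitm3 by 0.60 ± 0.09 (SE; limma adjusted p = 0.00477, 0.00493, 0.00628 and 0.00393). C3, Serpina1a and Serpina3k are at the bright end of the array, and under quantile normalization they differed by 0.0023, 0.055 and -0.21 and were not called. Hamp, the iron hormone hepcidin, fell by 1.28 ± 0.23 (SE; limma adjusted p = 0.00844) and kept its call under each alternative; it was named after its value was seen. The 3 that rose were Orm3, Steap4 (0.56 ± 0.13, SE) and Mbl2 (0.29 ± 0.08, SE). Steap4, a metalloreductase, had a limma adjusted p of 0.0249 and lost its call on leaving out AdGFP replicate 1, AdGFP replicate 2 or any AdLeXis sample but replicate 1 (differences 0.47 to 0.57). Steap4 also lost its call with median scaling (0.48, limma adjusted p = 0.0732) and with no filter on dim probes (limma adjusted p = 0.0523). Mbl2, mannose-binding lectin, had a limma adjusted p of 0.0357 and lost its call without any 1 sample except AdGFP replicate 2 (differences 0.26 to 0.30). It was called in 9 of 21 alternatives. The call was also lost with normexp background correction (0.22), median scaling (0.20, limma adjusted p = 0.206) and the percentile over probes detected on all arrays. The same held with no filter on dim probes and with the replicate number as a block. Under quantile normalization the count that fell was 2, and Mbl2 differed by 0.59. The count that rose was 5 with normexp background correction and 1 with median scaling or no filter on dim probes. It was 0 when AdLeXis replicate 2 or 4 was dropped and 1 when AdGFP replicate 1, AdGFP replicate 2 or AdLeXis replicate 3 was dropped. Mt1, a metallothionein and the brightest not called, differed by 0.10.

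Of 14 negative acute phase proteins 8 fell and 6 did not pass, with a median of -0.36. Alb is given above, Rbp4, the retinol carrier, fell by 0.54, Ahsg, fetuin A, by 0.58 and Apoa1 by 0.73 (limma adjusted p = 0.00312, 0.0041 and 0.00534), and Apoh differed by -0.18. These genes too are at the bright end, and under quantile normalization 2 of the 14 were called lower.

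**Figure D4:**
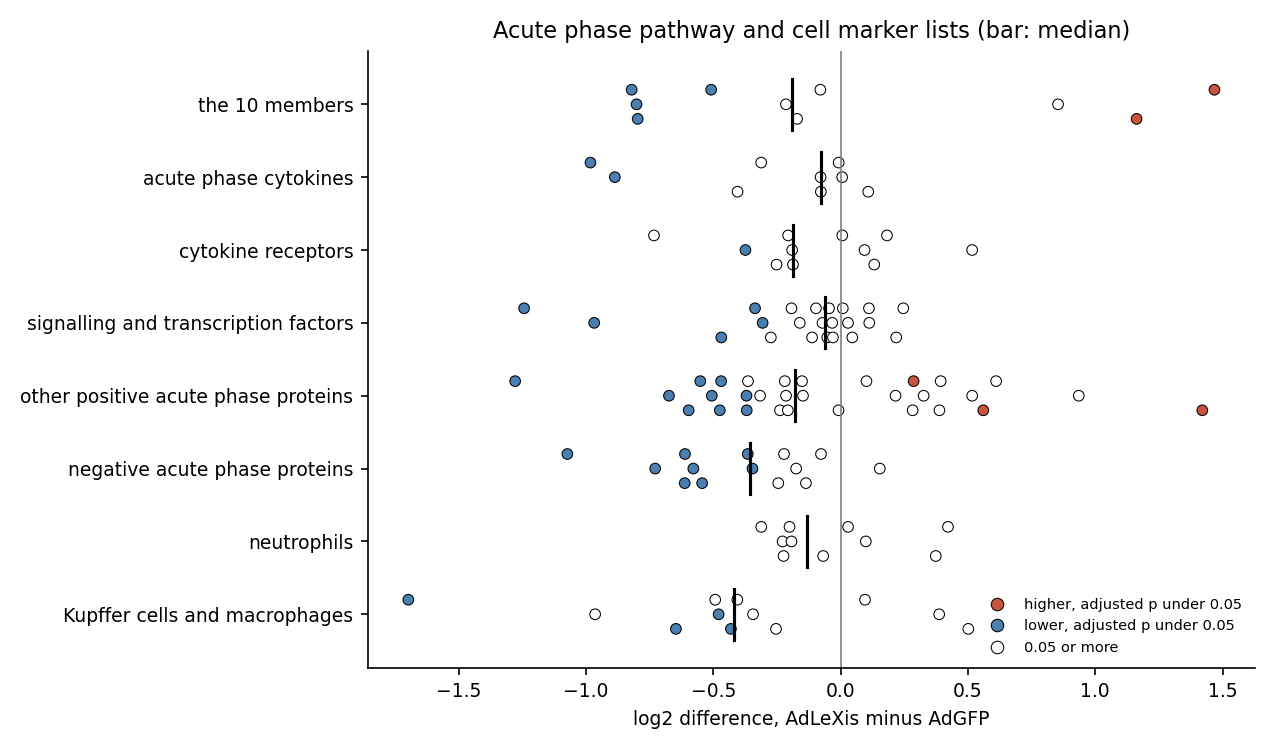
Log2 difference between AdLeXis and AdGFP for each measured gene of the members and of 7 lists, with 1 point for each gene and a bar at the list's median. The called points of the cytokine, receptor, signalling, negative acute phase and macrophage lists are all lower, the other positive acute phase proteins have 9 lower and 3 higher, the members 4 lower and 2 higher, and the neutrophil list has no called point.

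Of the 7 measured partners of Hp and Hpx in haem and iron handling, 4 fell and 1 rose, with a median of -0.40. Hmox1, haem oxygenase 1, fell by 0.61 ± 0.11, Trf by 0.61 ± 0.10, and the ferritin chains Fth1 by 0.40 and Ftl1 by 0.54 (limma adjusted p of Hmox1 0.00797 and of Trf 0.0061). Tfrc, the transferrin receptor, rose by 0.86 ± 0.16 (SE; limma adjusted p = 0.0103; named after its value was seen). Slc40a1, the iron exporter ferroportin, differed by -0.10 (0.27 under normexp background correction). Under quantile normalization 1 of the 7 was called lower, and Fth1 differed by 0.0028.

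Of 9 receptors and carriers of serum amyloid A and lipocalin 2, 4 fell and 5 did not pass, with a median of -0.39. They were Apoa1, the apolipoprotein of the particle that carries serum amyloid A, Tlr2 (-0.89 ± 0.17, SE; limma adjusted p = 0.0103), Fpr2, a formyl peptide receptor (-0.75 ± 0.17, SE; limma adjusted p = 0.0192) and Tlr4 (-0.66 ± 0.15, SE; limma adjusted p = 0.0211). Fpr2 lost its call with the replicate number as a block (limma adjusted p = 0.074), differed by -0.45 with normexp background correction, and lost its call on leaving out AdGFP replicate 1, AdGFP replicate 2 or AdLeXis replicate 4 (differences -0.73 to -0.69), and Tlr4 on leaving out AdGFP replicate 1, AdGFP replicate 2 or any AdLeXis sample but replicate 1 (differences -0.65 to -0.57), and 2 of the list were called when AdGFP replicate 1, AdGFP replicate 2 or AdLeXis replicate 4 was left out. Scarb1, the scavenger receptor for high density lipoprotein, differed by 0.22 and was called without AdLeXis replicate 1 (0.32).

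Saa3 and Lcn2 are also made by cells other than hepatocytes, and the markers of those cells were measured on the same arrays. Of 10 measured neutrophil markers limma called 0, with 1 at an unadjusted p under 0.05 and 4 called lower with normexp background correction, and their mean level was 7.21 to 7.62 in AdGFP and 7.06 to 7.70 in AdLeXis samples. Over all genes tested 17.5% were called, so 0 called does not set a list of 10 apart. S100a8 differed by -0.22 and S100a9 by -0.20 (limma adjusted p = 0.585 and 0.657). Of 12 Kupffer cell and macrophage markers 4 fell and 8 did not pass, with a mean level of 11.496 to 11.97 in AdGFP and 11.16 to 11.48 in AdLeXis samples. Among them Timd4 fell by 1.7 ± 0.32 and C1qc by 0.65 ± 0.13 (SE; limma adjusted p = 0.0096 and 0.0118), and with normexp background correction Timd4 differed by -0.80. Timd4 was dim, at mean levels of 5.33 in AdGFP and 3.63 in AdLeXis samples. It was well above background on 3 of the 4 AdLeXis arrays, so the size of its fall is uncertain. Vsig4 (0.50), Folr2 (0.39) and Clec4f (0.095) were on the other side of 0, none of them called, and are named after their values were seen. With normexp background correction 7 macrophage markers were called lower and 2 higher, beside 9694 genes lower and 2981 higher over the whole array. The lower count was 7 with median scaling, 8 with a trend in the moderation and 2 with 95th percentile scaling or no filter on dim probes, and 1 marker was called higher with the trend or without AdGFP replicate 4. Dropping AdGFP replicate 1, AdGFP replicate 2 or AdLeXis replicate 2 left 2 macrophage markers called.

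Of 5 measured adipocyte markers limma called 0, with 1 at an unadjusted p under 0.05, and their mean level was 5.73 to 6.60 in AdGFP and 6.47 to 7.17 in AdLeXis samples. Retn, resistin, differed by 1.38 ± 0.43 (SE; limma adjusted p = 0.0611) with all 4 AdLeXis samples above the AdGFP samples, and Cfd, adipsin, by 1.34 ± 0.72 (SE; limma adjusted p = 0.238) with overlap; both are named after their values were seen. An adipocyte marker was called higher under 4 alternatives, which were normexp background correction (with 2 others lower), the mean of a gene's probes, a trend in the moderation and leaving out AdGFP replicate 4. Of 8 T and natural killer cell markers 7 fell, with a median of -1.07 and a mean level of 9.21 to 9.37 in AdGFP and 8.17 to 8.41 in AdLeXis samples. Of 8 stellate cell and fibroblast markers 4 fell (median -0.40); 95th percentile scaling or no filter on dim probes left 2, dropping AdLeXis replicate 2 left 1, and dropping AdGFP replicate 1, AdGFP replicate 4, AdLeXis replicate 3 or AdLeXis replicate 4 left 2. Of 6 endothelial markers limma called 0 with 0 at an unadjusted p under 0.05 (median 0.019), and with normexp background correction 2 higher and 2 lower. With 17.5% of all genes called, 0 called does not set apart lists as short as the adipocyte and endothelial ones. Of 10 hepatocyte markers 6 fell, with a median of -0.36, and under quantile normalization 1 did. The part of the adipocyte, macrophage, lymphocyte, stellate and hepatocyte markers in the members' differences was not tested.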

How the data were processed

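Total RNA of 8 liver samples was measured on 1-colour Agilent arrays. The deposited files hold spot intensities on a linear scale, which Feature Extraction 11.5.1.1 had background-subtracted per the file headers, with no scaling across arrays; the series' value table holds the same numbers. From these, log2 values were scaled to each array's 75th percentile, outlier spots (127 to 256 per array) were dropped, and a probe was kept if 4 or more arrays showed it well above background and each group had it measured on 2 or more (34450 probes; the brightest probe of each of 23997 genes). No reads were counted, and the number of arrays limits the precision. Groups follow the treatment tag. limma 3.58.1 in R 4.3.3 compared them, with Benjamini-Hochberg adjustment over all genes and a threshold of 0.05. The script was tested on simulated data. Named were the 10 members, up to 4 called genes of smallest p and the brightest uncalled gene of each list, and the 3 genes most like each called member; Il6, Stat3, Cebpb, Cebpd, S100a8 and S100a9 were added after their values were seen. The members, lists and other choices were made with earlier results of these data known. Scaling, background, filter, moderation, replicate block and left-out samples were varied. A further gene alike in pattern to Apcs is not reported here.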

Additional observations from a re-analysis of the deposited data

Results flagged for a closer look

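Within each group of 4 samples, the distance from the highest or lowest sample to its nearest neighbour was divided by the group's whole range and set against Dixon's critical value for 4 samples. Of 164 groups of the 82 genes with a reported difference 10 passed it, and chance passes about 1 in 20 groups. Among the members, Hpx was at 16.58 on AdGFP replicate 4 against 18.32 to 18.37 on the other 3 arrays, and Orm2 was at 15.02 on AdLeXis replicate 1 against 14.67 to 14.71. On AdLeXis replicate 1, C3 was at 18.28 (others 18.08 to 18.11), Serpina1a at 18.25 (others 18.05 to 18.08) and Cebpb at 13.66 (others 14.04 to 14.11). On AdGFP replicate 1, Csf3r was at 13.92 (others 14.97 to 15.05) and Col27a1 at 7.90 (others 8.29 to 8.33). On AdGFP replicate 3, Stat3 was at 13.55 (others 13.25 to 13.26) and Ftl1 at 18.06 (others 18.13 to 18.14). On AdLeXis replicate 3, Saal1 was at 7.86 (others 8.14 to 8.19).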

How the results depend on the processing

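Saa3, Saa4, Orm1, Orm2 and Apcs kept their direction and their call under all 22 alternatives, and Saa2 stayed uncalled and below 0. Some alternatives changed only the filter, the probe summary, the moderation, the block or the probes adjusted over. In those the members' differences were fixed in advance and only the adjusted p could change. The deposited value table held the same numbers, and every alternative scaled the arrays to one another. Quantile normalization ended the call of Hp (-0.0031). Lcn2 was called with normexp background correction (0.95) and ranged from 0.62 to 1.17 when 1 sample was left out. Hpx turned positive with normexp (0.29), quantile normalization (0.37) and cyclic loess (0.064) and ranged from -0.52 to 0.076 when 1 sample was left out; Saa1 ranged from -0.39 to 0.019. Leaving out 1 sample changed the number of called genes to between 2514 and 4121, the higher ones to between 1244 and 2086 and the lower ones to between 1270 and 2035, the lowest each without AdLeXis replicate 4. Against 2093 higher and 2101 lower, normexp called 12675 genes (2981 higher, 9694 lower) and median scaling 1156 higher and 2679 lower. The other reversals were of uncalled or bright genes. With normexp they were Ctf1 (0.0037), Hnf4a (-0.060), Slc40a1 (0.27), Stat3 (0.032) and Cebpd (0.033), with median scaling Hnf4a (-0.054) and Gtf2h1 (-0.0054), and with the percentile over probes detected on all arrays Hnf4a (-0.0025). With quantile normalization they were C3 (0.0023), Serpina1a (0.055), Apoh (0.012), Fth1 (0.0028), Ass1 (0.12) and Ambp (0.0059). When 1 sample was left out, Hnf4a ranged from -0.019 to 0.077, Mt1 from -0.067 to 0.19, Csf3r from -0.17 to 0.21, Cidec from -0.10 to 0.40, Klrb1c from -0.21 to 0.049, Il6 from -0.25 to 0.036 and Cebpd from -0.17 to 0.043. The cause of these changes was not tested.

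Replicate numbers are shared between the groups and equal the slide column. They are those of the titles; the deposited files carry other sample numbers, so what a shared number means is not settled. Deviations of same-numbered samples from their group means correlated at 0.013, 0.066, 0.12 and 0.00061, so the numbers were not taken to pair the samples. With the replicate number as a block 3148 genes were called (1521 higher, 1627 lower), the 6 called members among them, and 1 of the 4 numbers had its own number as best partner. Signal over background limits none of the members, since each was well above background on all arrays.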
